A study of Gallus gallus with 4 samples.

Results

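SEMA5A and NTN3 are a semaphorin and a netrin, members of families of cues that steer growing axons and migrating cells, and they were examined in chick neural tube cells that received Hoxb8. They were taken by symbol from the authors' deposited table of one comparison, which listed 17108 Ensembl genes, 1432 of them with a symbol. Exactly 2 lines carried these symbols, SEMA5A as ENSGALG00000013051 and NTN3 as ENSGALG00000029072, and both were among the 12574 genes with an adjusted p-value. The pair was chosen with its fold changes known, that is, selected on the values of the comparison described here, so these are given as a description and no further test is built on them.

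Chick embryos of Hamburger-Hamilton (HH) stage 11, a step in the standard staging of chick development, were electroporated in the trunk neural tube in ovo. The Hoxb8 group (2 samples) received Hoxb8-pCIG at 1 µg/µl together with pCIG at 1 µg/µl, and the control group (2 samples) received pCIG alone at 2 µg/µl. pCIG marks transfected cells with green fluorescent protein (GFP), Hoxb8 is a homeobox gene of the trunk, and every sample in both groups carried the GFP plasmid. After 18 hours the GFP-positive part of the tube was dissected, live GFP-positive cells were sorted, and their polyadenylated RNA was sequenced after linear amplification of the cDNA. The sort takes any transfected cell type, and the labels give neither the number of embryos pooled nor a date, so the p-values reflect no more than the scatter among these 4 samples, which may be technical.

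Semaphorins act mainly through plexin receptors, and class 5 semaphorins are transmembrane proteins that carry thrombospondin type 1 repeats next to the semaphorin domain. In rodents, Sema5A can attract or repel axons, depending on the proteoglycans it meets, and plexin-B3 is a known receptor in mammals. Netrins are secreted proteins related to the laminins. Those made by the ventral neural tube guide commissural axons, DCC-family receptors mediate attraction and UNC5 receptors repulsion, and mouse netrin-3 binds receptors of both families.

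The deposited table of the authors gives 1 mean per gene over the 4 libraries and no values per library. Its means carry 15 significant digits, and each is a sum of whole reads divided by size factors of 1.053 and 1.051 on the Hoxb8 side and 0.958 and 0.954 on the control side. The reads behind a mean can therefore be sought as sets of 4 whole numbers. For SEMA5A 4 sets gave the deposited mean, and 1 of them also gave the deposited fold change and standard error, within 1.08e-09 on the log2 scale, whereas the next best set missed it by 0.0934. For NTN3 49 sets gave the mean and 1 also gave the fold change, within 1.23e-09, whereas the next best missed by 0.0359. Over the tested genes with a mean of up to 10000, a narrower search took only sets near the group split implied by the deposited values. Exactly 1 such set also gave the fold change for 10550 of these 10572 genes. The tolerance was wider (1e-05 on the log2 scale) at means under 100. Libraries are called a and b within each group here. These letters are arbitrary and not the replicate numbers of the labels, and a library stands on the Hoxb8 side where genes with 1 read in it had a positive deposited fold change. HOXB8 itself has no line under its symbol, so the transfected gene gives no check of the direction, and WT in the table was taken to be the pCIG control.

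SEMA5A was the cue that was higher in Hoxb8 cells. It had 2058 and 2449 reads in Hoxb8 libraries a and b, against 866 and 676 reads in control libraries a and b. Divided by the size factors, these were normalised read counts of 1954 and 2329 in the Hoxb8 libraries and 904 and 709 in the control libraries. The lower Hoxb8 library thus held 2.16 times the count of the higher control library, and the groups did not overlap, with both Hoxb8 libraries higher as in 31.3 percent of the 10550 genes with reads worked out. The means were 2142 ± 266 normalised counts in Hoxb8 cells and 806 ± 138 in control cells (SD, n = 2 each).

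The authors' deposited table gives SEMA5A a log2 fold change of 1.26 ± 0.17 (standard error, here and below), a 2.39-fold difference (adjusted p = 5.37e-12). That value is moderated toward 0. Without moderation, and at the dispersion implied by the deposited standard error, the reads gave 1.41 ± 0.19, a 2.66-fold difference. The 4 ratios of a Hoxb8 library to a control library ran from 2.16 to 3.29. The p-value of SEMA5A was the 90th lowest among the 1097 genes called higher in Hoxb8 (adjusted p under 0.05, per the authors' deposited table). Among the 127 of these with a symbol it was the 8th lowest.

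NTN3 was lower in Hoxb8 cells. It had 2370 and 2920 reads in Hoxb8 libraries a and b, against 4006 and 4432 in control libraries a and b. The normalised read counts were 2250 and 2777 in the Hoxb8 libraries and 4182 and 4646 in the control libraries. Both Hoxb8 libraries lay below both control libraries, as in 24.2 percent of those 10550 genes, and the higher Hoxb8 library held 0.664 times the count of the lower control library. The means were 2514 ± 373 normalised counts in Hoxb8 cells and 4414 ± 328 in control cells (SD, n = 2 each).

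In the authors' deposited table NTN3 has a log2 fold change of -0.75 ± 0.14, which makes the level in Hoxb8 cells 1.68-fold lower (adjusted p = 6.22e-06). Without moderation the reads gave -0.81 ± 0.16, a 1.76-fold difference, and the 4 ratios of a Hoxb8 to a control library ran from 0.484 to 0.664. Among the 816 genes called lower in Hoxb8 per the authors' deposited table, NTN3 had the 87th lowest p-value, and among the 79 of these with a symbol the 12th lowest. With the Wald scores divided by their central spread of 1.69, NTN3 had an adjusted p of 0.0717 and SEMA5A of 0.000928, against ranges over all settings tried of 5.49e-06 to 0.0717 for NTN3 and 1.56e-14 to 0.000928 for SEMA5A.

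**Figure D1:**
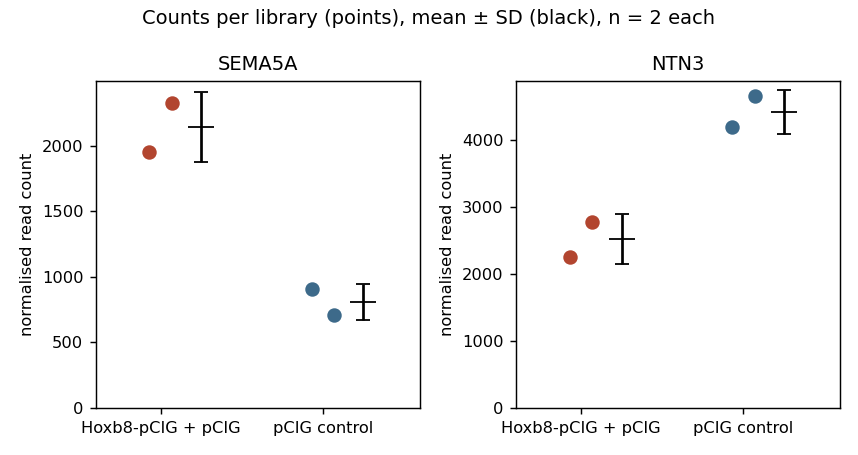
Normalised read counts (vertical axes, from 0) of SEMA5A and NTN3 in the Hoxb8 and the control libraries, worked out from the deposited means; each point is 1 library and black bars are the mean ± SD of 2 libraries. SEMA5A stands at 1954 and 2329 in Hoxb8 against 709 and 904 in control libraries, and NTN3 at 2250 and 2777 against 4182 and 4646.

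Both genes passed the threshold used here, an adjusted p under 0.05. So did 15.2 percent of all tested genes per the authors' deposited table (8.72 percent higher and 6.49 percent lower in Hoxb8). Because these values chose the pair, nothing is read from that count. Groups that did not overlap were common, at 55.5 percent of the 10550 genes in either direction.

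The size of each change was also ranked among genes of like level. SEMA5A has a mean of 1474 normalised counts per the authors' deposited table, above 41.6 percent of tested genes. Of the 3049 genes with a mean within 2-fold of it, 395 were called higher and 154 lower, and 49 had a higher log2 fold change than SEMA5A. NTN3 has a mean of 3464, above 59.4 percent of tested genes. Of the 3973 genes within 2-fold of that, 309 were called higher and 252 lower, and 26 had a lower log2 fold change than NTN3. The median log2 fold change at these levels was 0.035 around SEMA5A and -0.019 around NTN3 per the authors' deposited table. These counts are not scaled to transcript length and do not rank SEMA5A and NTN3 against each other.

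**Figure D2:**
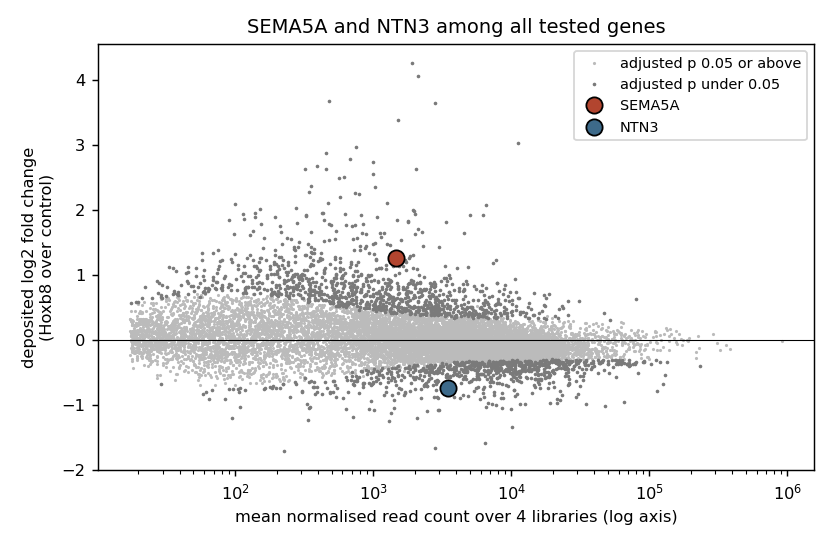
Deposited log2 fold change, Hoxb8 over control (vertical axis), against the mean normalised read count over 4 libraries (horizontal log axis) for the 12574 tested genes; darker points have an adjusted p under 0.05. SEMA5A at 1.26 and NTN3 at -0.75 lie on opposite sides of the bulk of genes at their levels.

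Libraries of the same group were also compared with each other. Control libraries a and b differed by 0.35 on the log2 scale for SEMA5A, more than for 88.4 percent of the genes at like mean, whose median was 0.14. The Hoxb8 libraries differed by 0.25, against a median of 0.20. For NTN3 the differences were 0.30 between the Hoxb8 libraries and 0.15 between the control libraries, against medians of 0.17 and 0.11, larger than for 76.1 and 65.8 percent of the genes at like mean. The dispersion implied by the deposited standard error was 0.0159 for SEMA5A and 0.0113 for NTN3. As a coefficient of variation this is 12.6 and 10.6 percent, a value of the authors' fit and not the scatter measured between libraries. The deposited standard errors were 1.06 and 1.04 times the median of genes at like mean.

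The opposite changes of the cues can also be expressed within each library, where the size factor cancels. There were 0.868 and 0.839 SEMA5A reads per NTN3 read in Hoxb8 libraries a and b, against 0.216 and 0.153 in control libraries a and b. The ratio was thus between 3.88 and 5.69 times higher in a Hoxb8 than in a control library. The pair was chosen with these opposite changes known, so the direction of the ratio was fixed in advance. Because the RNA came from bulk samples, a change in how many cells make a transcript and a change in its amount per cell cannot be told apart. This holds for either gene.

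Looked up by symbol, the rest of the guidance machinery is partly seen, because few of these genes carry one in the deposited table. Of 243 genes on the guidance lists, 23 had a line under their symbol and 20 of these were tested. Lines with an Ensembl identifier alone were not searched for the others. Apart from SEMA5A and NTN3, 3 of 18 were higher and 2 lower in Hoxb8, beside 8.72 percent and 6.49 percent of all tested genes. The list of thrombospondin-repeat proteins, which have many functions, gave 9 of these 18, with 2 of the higher and 1 of the lower genes. The 18 had a median log2 fold change of 0.11, against -0.005 over all tested genes per the authors' deposited table. None of 16 semaphorin receptors and none of 23 ephrins and Eph receptors carried a symbol there, so plexins and neuropilins were not analysed here. The same holds for NTN1 and SEMA5B, the nearest relatives of the pair, and for DCC and the UNC5 genes. RefSeq (assembly GRCg7b) lists NTN1 as a synonym of chicken NTN3 as well as the symbol of a separate gene, and reads that these paralogues, or a gene on the other strand, may share cannot be separated.

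Among ligands, SEMA4G was the other semaphorin with a symbol, and it did not pass. This transmembrane class 4 semaphorin had normalised counts of 429 and 533 in Hoxb8 libraries and 313 and 434 in control libraries, and a log2 fold change of 0.29 ± 0.21 per the authors' deposited table (adjusted p = 0.408). The groups overlapped, since control library b exceeded Hoxb8 library a. NTN3 was the 1 gene of 19 netrins and laminins with a symbol.

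On the lists of netrin receptors and modulators and of Slit and Robo genes, 3 genes were tested. Of these 1 was called higher, beside 8.72 percent of all tested genes. FLRT3, a leucine-rich repeat membrane protein that binds Robo1 and UNC5 receptors, had normalised counts of 7543 and 7530 in Hoxb8 libraries and 4873 and 5066 in control libraries, and rose by 0.57 ± 0.12 on the log2 scale per the authors' deposited table (adjusted p = 5.56e-05, range 2.77e-07 to 0.135 over the settings tried). RGMB, a ligand of the netrin receptor neogenin, stood at -0.18 ± 0.17 and LRRC4C, which binds netrin-G1, at -0.03 ± 0.15 as log2 fold changes per the authors' deposited table. Neither passed (adjusted p = 0.530 and 0.936). With the median of genes over 10000 set to 0, a shift of all values by 0.12, LRRC4C stood at 0.10. CSPG5, a transmembrane chondroitin sulphate proteoglycan and the 1 of 19 proteoglycans with a symbol, stood at 0.09 ± 0.15 per the authors' deposited table (adjusted p = 0.765).

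SEMA5A shares its thrombospondin type 1 repeats with secreted and membrane proteins of many functions. Of 62 on the list, 12 had a line under their symbol and 10 were tested. Apart from SEMA5A, 2 of 9 rose and 1 fell, beside 8.72 percent and 6.49 percent of all tested genes. RSPO2, a secreted R-spondin that strengthens WNT signalling, had normalised counts of 924 and 986 in Hoxb8 libraries and 512 and 470 in control libraries, a log2 fold change of 0.84 ± 0.18 per the authors' deposited table (adjusted p = 5.27e-05). ADAMTSL3, a secreted matrix protein, had 126 and 151 in Hoxb8 libraries and 30 and 14 in control libraries, a log2 fold change of 1.22 ± 0.27 per the authors' deposited table (adjusted p = 0.000119). The groups did not overlap for either gene, as in the 31.3 percent of genes with both Hoxb8 libraries higher. ADAMTSL1 fell by 0.50 ± 0.18 on the log2 scale per the authors' deposited table (adjusted p = 0.0359). Under the shift that puts the median of genes over 10000 at 0 it did not pass (adjusted p = 0.135, range 0.0094 to 0.704 over the settings tried). With the Wald scores divided by their spread, RSPO2 and ADAMTSL3 did not pass (adjusted p = 0.133 and 0.167). The other 6 tested genes of this list stood between -0.38 and 0.21 on the log2 scale per the authors' deposited table, and HMCN1 was listed at 0.

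Of the intracellular effectors of guidance receptors, 4 of 63 were tested under their symbol. Of these 0 were higher and 1 was lower in Hoxb8, beside 8.72 percent higher and 6.49 percent lower over all tested genes. The other 3 did not pass as deposited. TRIM9, a ubiquitin ligase that in mouse binds the netrin receptor DCC, stood at -0.07 ± 0.14 per the authors' deposited table (adjusted p = 0.789), and its paralogue TRIM67 at 0.20 ± 0.27. ARHGEF28, a guanine nucleotide exchange factor, stood at 0.32 ± 0.14 per the authors' deposited table (adjusted p = 0.113), and it passed with the median of genes over 10000 set to 0 (adjusted p = 0.0141). CDK5 was listed at 0.

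**Figure D3:**
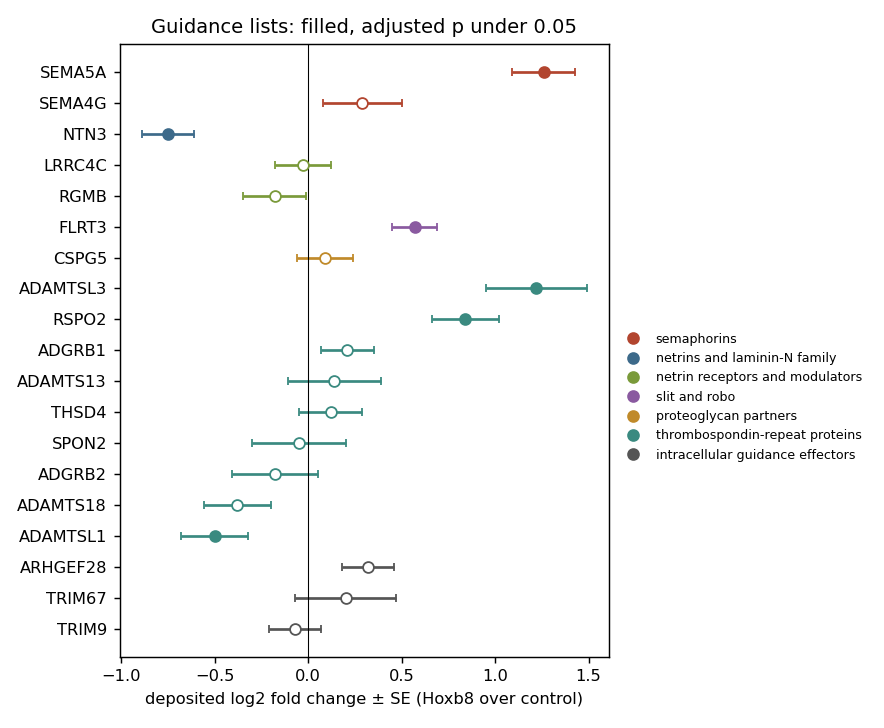
Deposited log2 fold change ± standard error, Hoxb8 over control (horizontal axis), for 19 of the 20 tested genes of the guidance lists, coloured by list; filled points have an adjusted p under 0.05, and 1 effector called lower is not drawn. SEMA5A at 1.26 and ADAMTSL3 at 1.22 have the highest values among these 19 genes and NTN3 at -0.75 the lowest.

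The genes nearest to SEMA5A in fold change, of 56 called genes with a symbol and a mean within 2-fold, were TSHZ2, SIDT1, LMO3, LMO2 and RERG. Likeness is the difference in log2 fold change over this 1 comparison, and it was 0.151 to 0.318. TSHZ2, a zinc finger transcription factor, had normalised counts of 1527 and 1673 in Hoxb8 libraries and 754 and 598 in control libraries. LMO2, a LIM-only cofactor, had 1416 and 1706 in Hoxb8 libraries and 474 and 507 in control libraries. In each of the nearest genes, as in SEMA5A, Hoxb8 library b held the higher count of its group. How common this is over all genes was not examined.

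NTN3 had closer matches. Of 60 called genes with a symbol and a mean within 2-fold, SULF1, PRELP, ZBTB18, ITGA2 and APC2 lay nearest, with log2 fold changes within 0.0163 to 0.084 of its own. SULF1, a sulphatase that edits heparan sulphate, had normalised counts of 1534 and 1344 in Hoxb8 libraries and 2657 and 2467 in control libraries. PRELP, a leucine-rich matrix proteoglycan, had 1308 and 1352 in Hoxb8 libraries and 2323 and 2464 in control libraries. Hoxb8 library b held the higher count of its group in NTN3 and PRELP. In SULF1, ZBTB18, ITGA2 and APC2 it was Hoxb8 library a, so closeness in fold change did not extend to the order of the libraries. The groups did not overlap in any of the 10 genes, which their choice as called genes of like fold makes likely. Over the 10550 genes with reads worked out, 31.3 percent had both Hoxb8 libraries higher and 24.2 percent both lower.

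**Figure D4:**
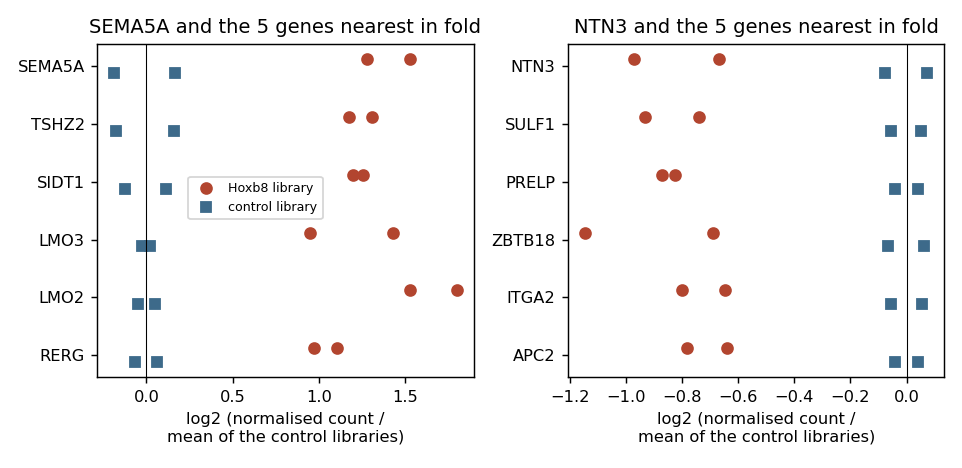
Normalised read count of each library over the mean of the 2 control libraries (horizontal axes, log2) for SEMA5A, NTN3 and the 5 genes nearest to each in fold change; circles are Hoxb8 and squares control libraries. SEMA5A and its 5 genes lie to the right of their controls and NTN3 and its 5 genes to the left, a direction that the choice by fold change fixes.

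Few markers of the cell types that the sort could hold had a line with a symbol. Lines without a symbol were not searched for the others. Of the floor plate (6 genes), commissural neuron (8), neural crest (6) and notochord (3) lists, none had a line with a symbol. The 1 neuronal marker of 10, the secretogranin gene SCG2, had normalised counts of 541 and 463 in Hoxb8 libraries and 260 and 276 in control libraries and rose by 0.74 ± 0.21 on the log2 scale per the authors' deposited table (adjusted p = 0.00508). That call was lost when values were centred on genes of like mean (adjusted p = 0.053, range over the settings tried up to 0.455). The 1 progenitor marker of 10, ID3, stood at -0.32 ± 0.12 per the authors' deposited table (adjusted p = 0.0593), the surface ectoderm gene GRHL2 at -0.49 ± 0.26 and the somite gene UNCX at -0.07 ± 0.25. Of 7 markers of blood and endothelium, 2 had a line with a symbol and 0 were listed at 0. The 2 summed to 4167 and 2865 normalised counts in Hoxb8 libraries and 2450 and 2615 in control libraries. Of these LMO2 rose, as above, and PECAM1, an endothelial adhesion molecule, stood at -0.03 ± 0.27 per the authors' deposited table (adjusted p = 0.963). The counts of PECAM1 overlapped between groups, at 2750 and 1159 in Hoxb8 libraries and 1976 and 2107 in control libraries. Both Hoxb8 sums lay above both control sums only with LMO2 included. The part of neuronal or blood and endothelial cells in the changes of SEMA5A and NTN3 was not tested.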

How the data were processed

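The submitters' processing notes name Subread, featureCounts, DESeq, DESeq2 and the build galGal4, without roles or versions, and the file's name gives Ensembl release 85. For the aligner and the strand, settings were not given in the sources used. The signal deposited by the authors is, for each gene, the mean over 4 libraries of counts divided by size factors. The authors' log2 fold changes and standard errors are on the log2 scale, their Wald score is the quotient of both, and their deposited p-values are adjusted by Benjamini-Hochberg over 12574 genes. The depth, as the sum of all deposited means, was 79237283 normalised counts per library on average. No count model was refitted across genes, so the planned edgeR test was not run.

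Reads per library were searched as described in the report, with python 3.11.15, numpy 2.4.6 and scipy 1.17.1. The planned rule asked for a single set that gives the mean. SEMA5A and NTN3 did not meet it, and the condition on fold change and standard error was added after seeing the data. It assumes a normal prior on the fold change, whose variance (0.2852, log2 scale) was set on 25 genes. Of 200 further genes whose mean alone gave 1 set, 199 met the deposited fold change within 1e-06 and 0 met that of another gene. On 200 genes simulated from the recovered reads of this comparison, 200 were recovered. They were simulated with the same fit and prior, so this checks the search and not the assumed prior.

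The pair and the gene lists were chosen with earlier results of these data known. Named genes are the pair, every tested gene of a list with at most 8 tested genes, otherwise the 4 with the lowest p, and the 5 nearest genes in fold change for each of the pair. The lists comprise semaphorins, semaphorin receptors, netrins with laminins, netrin receptors and modulators, Slit and Robo genes, ephrins with Eph receptors, proteoglycans, thrombospondin-repeat proteins, intracellular effectors, and cell type markers. As an exception to the rule for names, 1 tested gene of the effector list is not reported here. It was called lower, is the 1 effector called, and is 1 of the 2 genes besides NTN3 counted as lower over the guidance lists.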

Additional observations from a re-analysis of the deposited data

How the results depend on the processing

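SEMA5A stayed higher and NTN3 lower in Hoxb8 under every setting tried. The filters, thresholds and divided Wald scores leave the fold change untouched, and the shifts from centring are too small to reverse either sign. These settings therefore could not have changed the direction. For this pair, the 1 call lost was that of NTN3 (-0.75, adjusted p = 0.0717) with the Wald scores divided by their central spread. Among other named genes of the lists, FLRT3, RSPO2, ADAMTSL3, ADAMTSL1 and SCG2 also lost their calls with that division. That division lowers every score by construction. There the 1913 calls over all genes became 312, and at an adjusted p under 0.01 they became 1184. With the median of genes over 10000 set to 0, 1849 genes were higher and 361 lower, against 1097 and 816 as deposited, while SEMA5A stood at 1.38 and NTN3 at -0.62. At a mean of at least 400, 799 were higher and 810 lower. Reversed directions under the shift for genes over 10000 were LRRC4C (0.10), PECAM1 (0.10), TRIM9 (0.05) and UNCX (0.06), none of which passed. Each library was also left out in turn, at the same dispersion, size factors and moderation. The log2 fold changes were then 1.05 to 1.34 for SEMA5A and -0.86 to -0.59 for NTN3. The dispersion came from all libraries, so these fits give effect sizes only. These fits and those without moderation were chosen after seeing the data. The reads of both genes were the same at a tolerance 10 times wider. No paired analysis was possible because nothing ties the recovered libraries to the replicate numbers of the labels. A replicate block and another normalization across all genes were not run, as reads of genes with a mean over 10000 were not sought.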

Other observations

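The reads worked out per library show that the endothelial gene PECAM1 differed more between the 2 Hoxb8 libraries than between the groups. It had normalised counts of 2750 and 1159 in Hoxb8 libraries a and b and 1976 and 2107 in control libraries a and b. The 2.37-fold gap between the Hoxb8 libraries was exceeded or equalled by 3 others of the 3430 genes with a mean within 2-fold of its own. SEMA5A and NTN3 were both lower in Hoxb8 library a, where PECAM1 was higher. LMO2, the other blood and endothelium marker with a symbol, went the other way. Its normalised counts were 1416 in Hoxb8 library a and 1706 in Hoxb8 library b. Leaving Hoxb8 library a out gave log2 fold changes of 1.30 for SEMA5A and -0.59 for NTN3. The part of endothelial cells in these differences was not tested.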
